A study of Mus musculus with 5 samples.

Results

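The genes described here are 10 regulators of the mammary alveolus, namely *Stat5a*, *Stat5b*, *Jak2*, *Elf5*, *Cish*, *Socs2*, *Socs3*, *Id2*, *Stat3* and *Akt1*. They were chosen by gene symbol, and 10 of 10 were found among the 24319 genes of a bulk RNA-seq table. The table holds 5 libraries of mouse mammary luminal cells, the epithelial cells that line the lumen of ducts and alveoli. The labels give the genotype wild type to replicates 1, 2 and 3 and Brca1 knockout to replicates 4 and 5, with a mixed strain and mammary tissue for all 5. The study's text speaks of the luminal cells as BRCA1-deficient, so the libraries are named here by their labels and were also described as 1 set. Its *Brca1* mutant mice carried floxed *Brca1* alleles deleted by Cre under the MMTV promoter, which acts in mammary epithelium, on a mix of C57BL/6 and 129/Sv. Other mice of the study carried floxed *Trp53*, with or without floxed *Brca1*, and some carried a fluorescent reporter of Cre. The genotype labels of these 5 libraries name only *Brca1*, so their *Trp53* alleles are not given. Whether the libraries labelled wild type also carried Cre, the stage of each mouse (virgin or pregnant) and whether each library came from a separate mouse are not given. A p-value below thus measures only the spread between these libraries, which may be technical.

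Prolactin binds its receptor on luminal cells, and the kinase Jak2, which is tethered to that receptor, phosphorylates the transcription factors Stat5a and Stat5b. Stat5 dimers enter the nucleus, switch on milk protein genes and also switch on *Cish* and *Socs2*, whose products damp cytokine receptor signalling. Elf5, an Ets family factor, works beside Stat5 in committing progenitors to the milk-secreting lineage, and Stat3 takes over after weaning, when the alveoli die back. Id2 is needed for alveolar growth in pregnancy and Akt1 for survival and for the metabolism of secretory cells.

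Expression is given in FPKM, a fragment number corrected for the length of the transcript and the size of the library, so that levels of different genes can be set side by side. Luminal identity was plain in all 5 libraries, with *Krt8* between 2240 and 3653 FPKM and *Epcam* between 570 and 1062 FPKM. *Brca1* did not separate the labels, at 1.30, 1.32 and 0.234 FPKM in replicates 1 to 3, and 1.20 and 1.34 FPKM in replicates 4 and 5 (log2 difference 0.27, SE 0.38, limma adjusted p = 0.94), and a gene-level value does not show a deleted exon. Replicate 3, labelled wild type, stood apart. It had the highest value of 10 of 10 hormone-sensing luminal markers (summed 728 FPKM, against 35.2 to 68.6 in the other libraries), the lowest of 10 of 10 proliferation markers (4.60 against 81.2 to 170.2) and the lowest of 6 of 7 milk genes (28357 against 63206 to 78972), while 18.5% of all tested genes were highest and 51.9% lowest in that library. Replicates 2 and 3, both labelled wild type, were the highest pair for 6 of 6 fibroblast markers (109 and 86.0 FPKM against 2.997 to 12.6), 6 of 8 immune markers (925 and 248 against 26.5 to 470.3) and 4 of 5 endothelial markers (6.59 and 7.50 against 0.138 to 0.700), as for 9.55% of all tested genes. Among the immune markers *Cd3e*, *Itgam* and *Adgre1* were listed at 0 in 1 or 2 of replicates 1, 4 and 5, as were the endothelial markers *Kdr*, *Tek* and *Emcn*, and the adipocyte marker *Lep* was at 0 in all 5 libraries. Bulk values cannot tell fewer cells of a type from less RNA per cell, and the part of these markers in the results below was not tested.

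The 10 regulators spanned a wide range of levels. *Elf5* and *Stat3* were the highest and *Jak2* the lowest, and all 10 lay above the median of the 11481 genes tested (mean of 1 FPKM or more), between the percentiles 63.1 (*Jak2*) and 97.6 (*Elf5*). None differed between the labels past the threshold (limma adjusted p of 0.05).

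**Figure D1:**
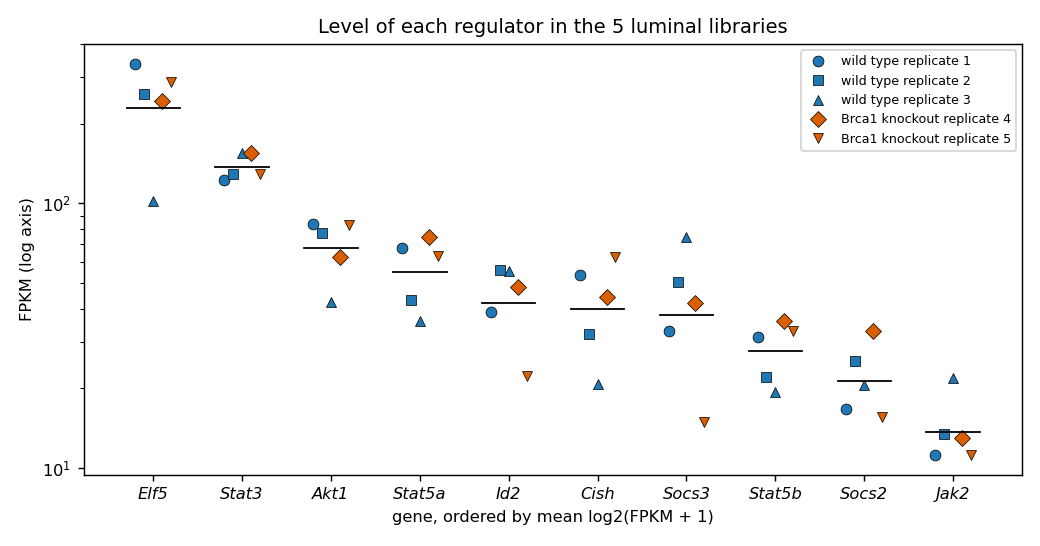
FPKM of each regulator (log axis) in the 5 luminal libraries, with genes ordered by mean log2(FPKM + 1), blue symbols for wild type, orange for Brca1 knockout, and a black line at the mean taken on the log2 scale. Elf5 spans 102 to 338 FPKM with replicate 3 far below the others, whereas Stat3 keeps within 122 to 156 FPKM.

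*Stat5a* and *Stat5b*, the paired transcription factors of the prolactin pathway, sit back to back on chromosome 11. In GENCODE M21 (mm10) *Stat5a* (ENSMUSG00000004043) runs from 100859351 to 100885169 on the plus strand in 20 exons and *Stat5b* (ENSMUSG00000020919) from 100780731 to 100850724 on the minus strand in 19 exons, with 8627 bases between their starts. *Stat5a* measured 68.1, 43.3 and 35.8 FPKM in replicates 1, 2 and 3, against 75.0 and 63.1 FPKM in replicates 4 and 5. Replicates 2 and 3 were the low pair, and the labels overlapped because replicate 1 lay between the libraries labelled knockout. *Stat5b* measured 31.4, 22.1 and 19.4 FPKM in replicates 1 to 3, against 36.1 and 33.1 FPKM in replicates 4 and 5. Here too replicates 2 and 3 were lowest, and both knockout libraries lay above all 3 wild type libraries, as for 17.5% of all tested genes, with 1.71 FPKM between the nearest 2.

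The ratio of *Stat5a* to *Stat5b*, which does not depend on how a library was scaled, held within a narrow band. It was 2.17, 1.95 and 1.85 in replicates 1 to 3 and 2.08 and 1.91 in replicates 4 and 5 (1.99 ± 0.13, SD, n = 5). The log2 ratio had an SD of 0.09 while the SDs of the genes themselves were 0.45 and 0.38. The pair is uncertain in 1 respect, since their coding sequences (2379 and 2358 bases) were 90.7% identical over 2340 aligned bases. Of all 100-base stretches of the *Stat5a* transcript 7.28% also occurred in *Stat5b*, and 5.18% of those of *Stat5b* in *Stat5a*, and how fragments from them were shared out is not given. *Stat5a* also shares 72 exonic bases with the end of *Stat3* on the opposite strand, and the strand setting of the counting is not given.

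*Jak2* (ENSMUSG00000024789, chromosome 19, 29251828 to 29313080, plus strand, 25 exons) codes for the kinase that carries the prolactin signal to Stat5. It measured 11.2, 13.5 and 21.9 FPKM in replicates 1 to 3, and 12.99 and 11.2 FPKM in replicates 4 and 5. Replicate 3 alone was high, at 1.80 times the mean of the other 4 (12.2 ± 1.19 FPKM, SD), and those 4 overlapped between the labels. In this library with the most *Jak2* both *Stat5* genes were at their lowest, except that median-of-ratios scaling put *Stat5b* lowest in replicate 2.

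Of 21 receptors and ligands of this pathway and its neighbours, 17 were high enough to test and 0 passed the threshold in either direction. Their median log2 difference, knockout minus wild type, was -0.15, with 4 positive and 13 negative. Over all tested genes the median was 0.11, and 65.5% were positive. Without replicates 2 and 3 the median of the list was 0.16, and that of all tested genes 0.003. Median-of-ratios scaling gave -0.28 for the list and -0.01 for all genes. The highest of the list was the interferon gamma receptor gene *Ifngr1* (46.6, 60.3 and 31.1 FPKM in replicates 1 to 3, 43.9 and 40.5 in replicates 4 and 5), and *Prl* itself, the pituitary hormone, was listed at 0 in all 5 libraries. The prolactin receptor gene *Prlr* followed *Jak2* in being highest in replicate 3, but by far more, at 6.17, 8.14 and 148 FPKM in replicates 1 to 3, and 5.61 and 10.3 FPKM in replicates 4 and 5. Its log2 difference of -1.31 (SE 1.38) became 0.09 without replicate 3. *Prlr* is also 1 of the hormone-sensing markers that were highest in replicate 3. *Il13ra1*, a receptor chain for interleukins of the Stat6 pathway, had the same shape (26.6 FPKM in replicate 3 and 1.91 to 4.56 elsewhere). The cytokine gene *Il6* was listed at 0 in replicate 1, was at 3.68 and 5.68 FPKM in replicates 2 and 3 and at 0.336 and 0.344 FPKM in replicates 4 and 5, the same pair of libraries that was high for fibroblast and immune markers.

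Among 7 other Jak and Stat genes 6 were tested and 0 passed, with a median log2 difference of 0.04 (-0.09 under median-of-ratios and -0.01 under quantile scaling). *Jak1*, a kinase of interferon and interleukin 6 family receptors, was the highest (22.7, 32.9 and 42.8 FPKM in replicates 1 to 3, 29.7 and 28.8 in replicates 4 and 5), which placed it above *Jak2* in every library, and *Stat4* was the lowest, at no more than 0.468 FPKM. *Stat2* and *Jak3* had log2 differences of -0.30 and -0.25.

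*Elf5* (ENSMUSG00000027186, chromosome 2, 103411688 to 103450989, plus strand, 7 exons) was the most abundant of the 10. It measured 338, 258 and 102 FPKM in replicates 1 to 3, and 244 and 288 FPKM in replicates 4 and 5. Replicate 3 was 2.77-fold below the mean of the other 4 (282 ± 41.3 FPKM, SD), and among those 4 the labels overlapped. The log2 difference between labels was 0.36 with all libraries and -0.15 without replicate 3, so that library set its sign.

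Elf5 acts among other lineage factors, and of 22 of these, all high enough to test, 0 passed the threshold, 14 had a positive difference and 8 a negative one (median 0.19), where 65.5% of all tested genes were positive. Under median-of-ratios scaling 12 were positive and 10 negative (median 0.05), where 5589 of all 11481 tested genes were positive. Without replicates 2 and 3 the median was also 0.05 (0.003 over all tested genes). Replicate 3 held the highest value of 8 (18.5% of all tested genes) and the lowest of 5 (51.9%). *Cebpb*, which codes for a factor that joins Stat5 at milk gene promoters, was the highest and varied little (354, 310 and 371 FPKM in replicates 1 to 3, 284 and 410 in replicates 4 and 5), while *Creb3l4* was the lowest, between 0.653 and 2.35 FPKM. The hormone-sensing genes *Pgr*, for the progesterone receptor, and *Foxa1*, a partner of the oestrogen receptor, were at 27.1 and 33.6 FPKM in replicate 3, against at most 0.714 and 2.01 FPKM in the other libraries. The library with the least *Elf5* was therefore the one with the most *Pgr* and *Foxa1*. *Ets1*, another Ets factor, was also highest there (7.49 FPKM against 0.973 to 2.96).

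*Cish* and *Socs2*, both feedback genes downstream of Stat5, did not move together. *Cish* (ENSMUSG00000032578, chromosome 9, 107296026 to 107302784, plus strand, 3 exons) measured 53.6, 32.2 and 20.7 FPKM in replicates 1 to 3, and 44.4 and 62.6 FPKM in replicates 4 and 5. Replicates 2 and 3 were the low pair, as for *Stat5a*, and the labels overlapped through replicate 1. Exons of *Cish* overlap 479 bases of the antisense gene *Gm17041* and 261 bases of the pseudogene *Gm17040*, whose fragments cannot be told apart from its own without strand. *Socs2* (ENSMUSG00000020027, chromosome 10, 95385362 to 95417180, minus strand, 3 exons) measured 16.7, 25.3 and 20.6 FPKM in replicates 1 to 3, and 33.1 and 15.6 FPKM in replicates 4 and 5. Its highest and its lowest library bore the same label, knockout, and the libraries highest for *Cish* (5 and 1) were the lowest for *Socs2*.

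The *Cish* start region shows what Stat dimers read in DNA. Stat5 and Stat3 bind the palindrome TTCNNNGAA, and this was searched in the 300-base windows of RefSeq (GRCm38.p6, which is mm10) from 250 bases before to 50 after each start. It reads the same on both strands, so 1 strand was searched. Windows were at hand for 9 members (13 windows). Of these 13 windows 2 held a match, those of *Cish* and *Socs3*, where 8.30% of all 32851 windows did. *Cish* held 2 copies, which 0.457% of windows did, the first at the RefSeq start itself and the next 11 bases after it. Below, 30 bases around the matches are given 5′ to 3′ with each match in capitals, for *Cish* (chr9:107296654-107296683, plus strand), for *Socs3* (chr11:117969501-117969530, minus strand, match at -154) and, as the milk gene that stands for the output of the pathway, for *Csn2* (chr5:87699499-87699528, minus strand, match at -93).
Cish: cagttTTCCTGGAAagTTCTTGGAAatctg
Socs3: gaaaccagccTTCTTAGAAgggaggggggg
Csn2: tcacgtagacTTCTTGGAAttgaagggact
The second *Cish* copy and the *Csn2* copy have the same 9 letters. In GENCODE M21 both *Cish* matches fall in an exon of 1 of its 5 transcripts and outside the other 4. A match of letters does not show that the site is bound in these cells.

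*Socs3* (ENSMUSG00000053113, chromosome 11, 117966079 to 117970047, minus strand, 2 exons), a feedback gene induced mainly through Stat3, was the most variable of the 10. It measured 32.9, 50.7 and 74.4 FPKM in replicates 1 to 3, and 42.2 and 14.9 FPKM in replicates 4 and 5, a 4.99-fold range. Replicates 3 and 2 were the highest and replicate 5 the lowest, with replicate 4 inside the range labelled wild type. From lowest to highest the libraries of *Socs3* (5, 1, 4, 2, 3) had the order of those of *Jak2* and the reverse of those of *Cish*. The order of *Socs3* and *Cish* was the same under both other scalings.

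Beyond these, 17 further inhibitors of cytokine signalling were tested and 0 passed the threshold. They had 10 positive and 7 negative differences and a median of 0.03, where 65.5% of all tested genes were positive. Under median-of-ratios scaling the median was -0.08 with 6 positive, where 5589 of all 11481 genes were. *Ptpn2*, a phosphatase of Jak and Stat proteins, was the highest (29.4, 27.0 and 49.3 FPKM in replicates 1 to 3, 32.6 and 21.4 in replicates 4 and 5). *Cav1*, for caveolin, was the lowest and had the widest gap between the labels, at 0.838, 5.22 and 6.85 FPKM against 0.430 and 0.0378 FPKM (log2 difference -1.88, SE 0.68, limma unadjusted p = 0.036, adjusted p = 0.92). *Cav1* is abundant in stromal and endothelial cells, and it too was highest in replicates 2 and 3. *Bcl6*, for a transcriptional repressor, was likewise highest in these 2 libraries (7.003, 13.3, 18.2, 8.53 and 5.16 FPKM in replicates 1 to 5). The log2 difference of *Ptpn6*, a phosphatase gene of blood cells, was -0.79.

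**Figure D2:**
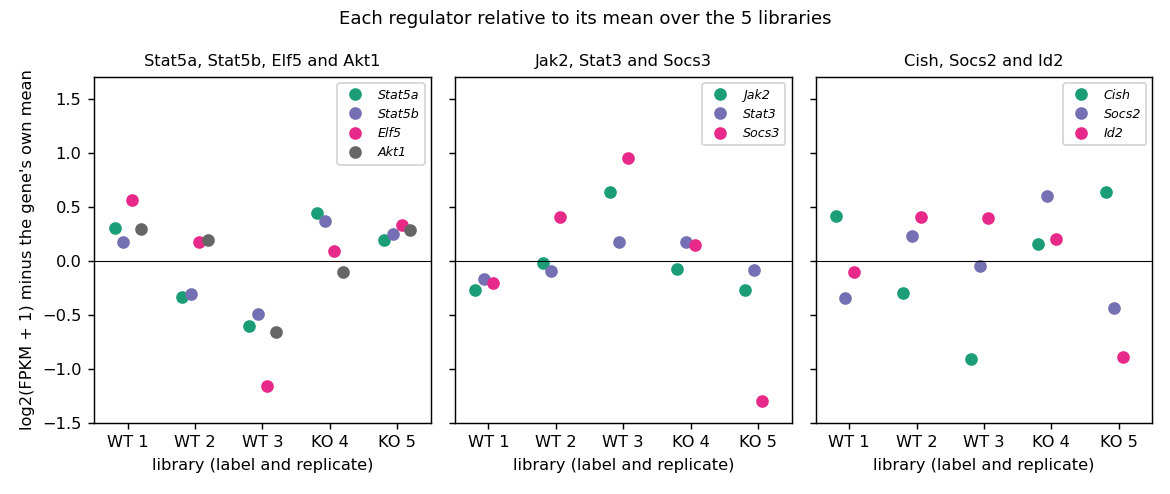
log2(FPKM + 1) of each regulator minus its own mean, for the libraries labelled wild type (WT 1 to WT 3) and Brca1 knockout (KO 4 and KO 5), with 1 point for each gene and library and a line at 0. Stat5a, Stat5b (not under median-of-ratios scaling), Elf5, Akt1 and Cish are lowest in replicate 3, Jak2 and Socs3 are highest there, and Socs3 and Id2 are lowest in replicate 5.

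*Id2* (ENSMUSG00000020644, chromosome 12, 25093799 to 25097140, minus strand, 4 exons) codes for a helix-loop-helix protein that holds back DNA binding by its partners. It measured 39.0, 55.9 and 55.6 FPKM in replicates 1 to 3, and 48.5 and 22.2 FPKM in replicates 4 and 5. Replicate 5 was the low library, and replicate 4 lay between those labelled wild type. Among the 11480 other genes tested *Id2* was rank 16 in likeness to *Socs3*, with a root mean square difference of 0.31 between their centred log2 profiles. The relatives of *Id2* were less abundant. *Id3* (3.18, 4.42 and 17.4 FPKM in replicates 1 to 3, 1.98 and 1.503 in replicates 4 and 5) and *Id1* (4.89, 1.93 and 11.4, then 1.63 and 1.54) were highest in replicate 3, with log2 differences of -1.45 (SE 0.66) and -1.21 (SE 0.61). Both were lower in each knockout library than in each wild type library, as 5.77% of all tested genes were, but 0 of the 2 passed the threshold (limma adjusted p = 0.92 for both), and without replicate 3 the differences were -0.80 and -0.69. *Id4* did not exceed 0.411 FPKM.

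*Stat3* (ENSMUSG00000004040, chromosome 11, 100885098 to 100939540, minus strand, 24 exons) was the steadiest member. It measured 122, 129 and 156 FPKM in replicates 1 to 3, and 155 and 129.5 FPKM in replicates 4 and 5, a range of 1.27-fold. Replicates 3 and 4 were nearly equal at the top, and the labels overlapped. Its log2 difference between labels was 0.07 (SE 0.20, 95% interval -0.45 to 0.58), the narrowest interval of the 10, and -0.07 under median-of-ratios scaling.

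Of 20 genes listed here as Stat3 targets of involution, a list that also holds the cytokine genes *Il6* and *Lif*, 0 passed the threshold. The difference was positive for 4 and negative for 16, where 65.5% of all tested genes were positive. Median-of-ratios scaling gave 3 and 17, where 5589 of all 11481 genes were positive. The median was -0.59, which became -0.28 without replicate 3 and 0.03 without replicates 2 and 3. Over all tested genes these 2 fits gave medians of 0.03 and 0.003. Replicate 3 held the highest value of 13 of the 20 (18.5% of all tested genes) and the lowest of 1. *Lcn2*, for the iron-binding protein lipocalin, was the highest (1749, 2158 and 5026 FPKM in replicates 1 to 3, 2157 and 1422 in replicates 4 and 5). *Mmp3*, for a matrix protease, was the lowest. The largest differences were those of *Lrg1*, *Fgg* and *Saa2*, which code for secreted acute phase proteins. *Lrg1* was at 306 FPKM in replicate 3 against 6.98 to 43.5 elsewhere, and *Fgg* at 43.6 against 0.199 to 1.13. *Saa2* followed the pair of replicates 2 and 3 (248 and 333 FPKM, against 24.8 to 59.1). The list shares *Il6*, *Lif*, *Osmr* and *Il4ra* with the receptors and ligands and *Pik3r1* with the Akt branch.

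Of 16 known Stat5 targets, 15 were tested and 0 passed. The difference was positive for 9 and negative for 6, where 65.5% of all tested genes were positive. Under median-of-ratios scaling the median was 0.02, with 8 positive and 7 negative, where 5589 of all 11481 genes were positive. As deposited the median was 0.13, and it turned to -0.15 without replicate 3 (0.03 over all tested genes). That library held the lowest value of 10 of the 15 (51.9% of all tested genes) and the highest of 2 (18.5%), which included the milk gene *Lalba*. *Lalba* measured 130, 172 and 599 FPKM in replicates 1 to 3, and 153 and 185 FPKM in replicates 4 and 5. The median of the list in replicate 3 was -1.18 on the log2 scale from the mean of the others, where that of all tested genes was -0.27. *Csn2*, for beta-casein, was the highest, with 28982, 31978 and 10569 FPKM in replicates 1 to 3, and 25327 and 28653 FPKM in replicates 4 and 5. *Glycam1*, another milk protein gene, had 186 FPKM in replicate 3 and 5506 to 12322 FPKM elsewhere, and its log2 difference went from 0.99 to -1.01 without that library. *Csn1s2b*, a casein gene, had a difference of 0.77. *Tnfsf11*, for the paracrine signal RANKL, had the largest difference of the list, at 6.71, 3.78 and 7.22 FPKM under the wild type label and 1.39 and 1.98 FPKM under the knockout label. Its log2 difference of -1.33 (SE 0.31, limma unadjusted p = 0.0068, adjusted p = 0.92) was -1.18 without replicate 3. *Tnfsf11* is also among the hormone-sensing markers. *Igf1* was the lowest of the list, at no more than 0.307 FPKM.

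*Akt1* (ENSMUSG00000001729, chromosome 12, 112653821 to 112674884, minus strand, 14 exons), for the kinase of the survival pathway, measured 83.6, 77.4 and 42.5 FPKM in replicates 1 to 3, and 63.0 and 82.6 FPKM in replicates 4 and 5. Replicate 3 was lowest, 1.81-fold below the mean of the others, and the labels overlapped. From lowest to highest the libraries (3, 4, 2, 5, 1) had the same order as for *Elf5*, under all 3 scalings. Its log2 difference of 0.15 became -0.16 without replicate 3.

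In the wider Akt branch 21 of 22 genes were tested and 0 passed the threshold, while 20 had a positive difference and 1 a negative one. The median was 0.19, against 0.11 over all tested genes, of which 65.5% were positive. Without replicate 3 it was 0.19 (0.03 over all tested genes), and without replicates 2 and 3 it was 0.20 (0.003). In 8 of the 21 both knockout libraries lay above all 3 wild type libraries, where 17.5% of all tested genes did. Under median-of-ratios scaling 15 of the 21 were positive, where 5589 of all 11481 tested genes were, and the median was 0.08. Quantile scaling also gave 15 of the 21, where 6417 of all genes were positive. Both knockout libraries lay above in 2 under median-of-ratios scaling (11.8% of all genes) and in 4 under quantile scaling (12.9%). The count of 8 thus rested on the scaling. *Foxo3*, a transcription factor gene whose product Akt inactivates, was the highest and had the largest difference, at 64.4, 57.3 and 41.7 FPKM in replicates 1 to 3, and 95.05 and 104 FPKM in replicates 4 and 5 (log2 difference 0.88, SE 0.24, limma unadjusted p = 0.013, adjusted p = 0.92). *Irs2*, for an adaptor of insulin receptors, was at 37.8, 28.9 and 67.1 against 66.3 and 77.9 FPKM, so its labels overlapped, and *Foxo1* had a difference of 0.43. *Pik3cd*, for a leukocyte PI3 kinase subunit, was the lowest, at 1.20 and 1.21 FPKM in replicates 2 and 3 and no more than 0.234 elsewhere.

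**Figure D3:**
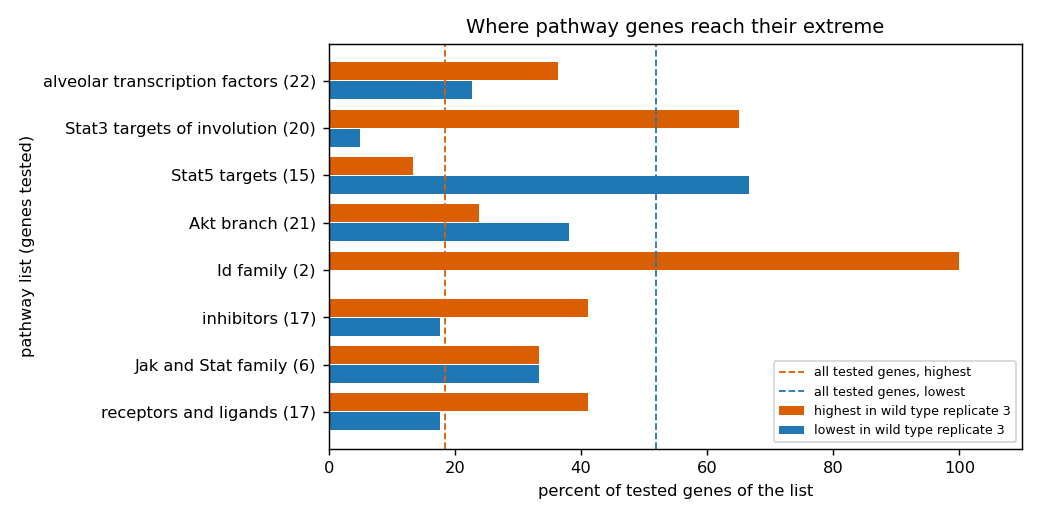
Share of the tested genes of each pathway list (number in brackets) whose highest (orange) or lowest (blue) value fell in wild type replicate 3, with dashed lines for all 11481 tested genes (18.5% and 51.9%). The genes listed as Stat3 targets of involution had 13 of 20 highest there, and those listed as Stat5 targets had 10 of 15 lowest.

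The comparison of the labels asked whether any of the 10 regulators differed between Brca1 knockout and wild type luminal cells. With limma on log2(FPKM + 1), 0 of 10 passed an adjusted p of 0.05 (0% of 11481 genes did), and their adjusted p-values lay between 0.92 and 0.97. At an unadjusted p under 0.05 there were 0 of 10 members, against 3.24% of all genes (372). *Stat5b* was the 1 member with every knockout library above every wild type library, a pattern held by 17.5% of all genes, and 0 had every knockout library below (5.77% of all genes). A share of 1 in 10 does not stand out from that background.

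*Socs3* had the largest difference with all 5 libraries, -0.96 (SE 0.54, 95% interval -2.31 to 0.39). It was -0.37 without replicates 2 and 3, -1.68 without replicate 4 and -0.24 without replicate 5, where *Socs2* (0.66) and *Stat5a* (0.65) had larger ones. *Cish* had 0.66 (SE 0.42), *Stat5a* 0.53 (SE 0.31) and *Stat5b* 0.52 (SE 0.25, 95% interval -0.11 to 1.15). Without replicate 3 these 3 were 0.34, 0.34 and 0.38, and without replicates 2 and 3 together they were -0.02, 0.01 and 0.13. *Id2* had -0.57 (SE 0.38), which was -0.24 without both libraries, -1.12 without replicate 4 and -0.029 without replicate 5. *Jak2* had -0.29 (SE 0.31), which was -0.02 without replicate 3. For *Socs2* the value was 0.14 (SE 0.37). Exact permutation tests of single genes, two-sided, gave p between 0.2 (*Stat5b*) and 1, and 3 libraries against 2 cannot give less than 0.2. The intervals are wide, so changes of up to 1.15 upward in *Stat5b* or 2.31 downward in *Socs3* on the log2 scale were not excluded at this size.

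**Figure D4:**
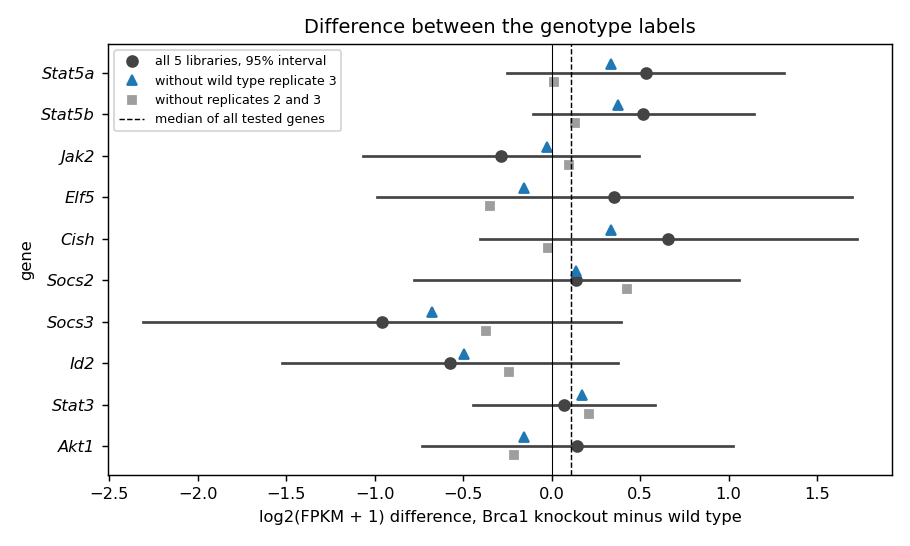
Difference in mean log2(FPKM + 1) between Brca1 knockout and wild type for each regulator (dark points, with 95% limma intervals), without wild type replicate 3 (blue triangles) and without replicates 2 and 3 (grey squares), with a dashed line at the median of all tested genes (0.11). Every interval crosses 0, and the Stat5a and Cish values shrink to 0.01 and -0.02 once replicates 2 and 3 are left out.

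Taken as 1 set of 5 libraries, the order of the members by mean log2 level was *Elf5* (7.84 ± 0.67, SD), *Stat3* (7.12 ± 0.16), *Akt1* (6.10 ± 0.40), *Stat5a* (5.81 ± 0.45), *Id2* (5.43 ± 0.54), *Cish* (5.35 ± 0.62), *Socs3* (5.29 ± 0.84), *Stat5b* (4.84 ± 0.38), *Socs2* (4.49 ± 0.43) and *Jak2* (3.88 ± 0.37). Of the 9 pairs of neighbours, 2 differed within libraries by more than 1 SD of that difference. *Stat3* exceeded *Akt1* by 1.01 ± 0.55 in 5 of 5 libraries (exact sign-flip permutation test, two-sided, p = 0.0625, the smallest that 5 libraries can give), and *Socs2* exceeded *Jak2* by 0.61 ± 0.51 in 4 of 5. *Elf5* exceeded *Stat3* in 4 of 5 libraries, by 0.73 ± 0.80, and without replicate 3, where *Stat3* was the higher, by 1.06 ± 0.33 in 4 of 4. From *Akt1* to *Socs2* the neighbours could not be ordered over the 5 libraries, with mean differences of 0.06 to 0.45 and SDs of 0.38 to 1.42.

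Ratios between members within a library do not depend on its scaling. They compare transcripts, and the activity of the proteins was not measured. *Stat5a* stood to *Stat3* at 0.556, 0.335 and 0.230 in replicates 1 to 3 and at 0.483 and 0.487 in replicates 4 and 5. The *Stat3* transcript was thus the more abundant in every library, and most so in replicates 3 and 2. *Elf5* stood to *Stat5a* at 4.96, 5.97 and 2.84, then 3.26 and 4.57, with replicate 3 again the lowest. *Cish* stood to *Stat5a* at 0.786, 0.744 and 0.578, then 0.592 and 0.991 (log2 SD 0.32). *Cish* was rank 2481 of 11480 in likeness to *Stat5a*, and *Stat5a* rank 581 in likeness to *Cish*. *Socs2* stood to *Stat5a* at 0.245, 0.585 and 0.576, then 0.441 and 0.247 (log2 SD 0.63). *Cish* to *Socs2* was 3.21, 1.27 and 1.00, then 1.34 and 4.02, with replicates 1 and 5 high under different labels. *Socs3* to *Stat3* was 0.269, 0.392 and 0.478, then 0.272 and 0.115, highest in replicate 3 and lowest in replicate 5.

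**Figure D5:**
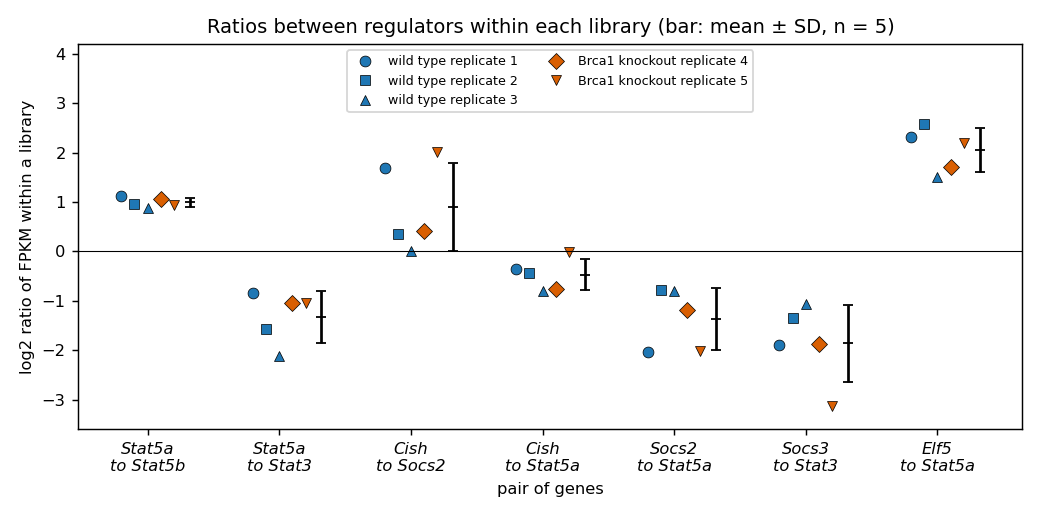
log2 ratio of FPKM between pairs of regulators within each library, with blue symbols for wild type, orange for Brca1 knockout and bars for the mean ± SD over 5 libraries. Stat5a to Stat5b stays within 1.85 to 2.17 (log2 SD 0.09), whereas Cish to Socs2 runs from 1.00 to 4.02.

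The places of the members in replicate 3 are set here beside those of all genes. *Stat5a*, *Stat5b*, *Elf5*, *Cish* and *Akt1* (5 of 10) were lowest there, where 51.9% of all genes were, and *Jak2*, *Socs3* and *Stat3* (3 of 10) were highest there, where 18.5% were. The median gene was itself -0.27 on the log2 scale from the mean of the others in that library, and relative to this median *Elf5* was at -1.18, *Cish* at -0.87, *Jak2* at 1.07 and *Socs3* at 1.45. Median-of-ratios scaling, which put the median gene at 0.00, left these 4 at their extremes, but *Stat5b* was then not the lowest in replicate 3, and quantile scaling took *Stat3* from its highest place. Both scalings made *Id2* highest there. A distance of more than 2-fold from the mean of the others was reached by *Elf5*, *Cish* and *Socs3* (3 of 10), and by 23.7% of all genes. With 10 members, these 3 shares are near their backgrounds. Replicates 2 and 3, the libraries with the most fibroblast and endothelial RNA, were the highest pair for *Jak2*, *Socs3* and *Id2* (3 of 10, against 9.55% of all genes) and the lowest pair for *Stat5a*, *Stat5b* and *Cish* (3 of 10, against 25.4%). Under median-of-ratios scaling the same 3 and 3 members held these places, against 16.3% and 14.1% of all genes. Counting error alone was at most about 6.56% (*Socs2* in replicate 1) on the rough depth read from the steps between low values, and it says nothing of the variation between libraries.

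Among all tested genes, those nearest in profile were found by the root mean square difference of centred log2 values over the 5 libraries. For *Stat5a* they were *Ccdc18* (0.019), *Wbscr27* (0.044) and *Cep44* (0.044), and *Stat5b* was rank 20 of 11480 (0.087). For *Elf5* they were *Rars2* (0.037), *Acacb* (0.055) and *Susd1* (0.055). The member nearest to *Elf5* was *Akt1* at rank 603, while *Elf5* was rank 3194 in likeness to *Akt1*. For *Cish* they were *Csn1s2b* (0.067), *Amigo2* (0.074) and *Usp38* (0.078). *Csn1s2b*, which is on the Stat5 target list, measured 9.32, 4.84 and 2.99 FPKM in replicates 1 to 3, and 8.18 and 11.2 FPKM in replicates 4 and 5, the same order of libraries as *Cish*. For *Socs2* they included *Fkbp5* (0.14) and *Igip* (0.15). *Fkbp5*, a gene known to respond to glucocorticoids, measured 40.8, 58.3 and 46.3 FPKM, then 61.2 and 31.4 FPKM, the same order of libraries as *Socs2*. With 5 libraries such likeness is a description, and many genes share the low value in replicate 3.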

How the data were processed

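Bulk RNA-seq of 5 libraries of luminal cells (sorted as DAPI-negative, CD24-high, CD29-low in the study's methods, whereas the labels' extraction text speaks of tumors) was analysed. The authors made the libraries with the NEBNext Ultra kit, aligned reads to mm10 with TopHat (2.1.1 in the methods, TopHat2 2.0.13 in the submitters' processing notes, which also name Trimmomatic 0.35) and deposited FPKM values from Cufflinks 2.2.1, with no counts or totals. The gene annotation and the sequencer used for each library are not given in the sources used here. Of 24346 rows, 27 whose names had become dates were left out.

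Values were analysed as log2(FPKM + 1), which understates changes of low genes. limma 3.58.1 (eBayes with trend, R 4.3.3) compared the labels over the 11481 genes whose mean reached 1 FPKM, with Benjamini-Hochberg adjustment. It was tried on simulated data of 11481 genes, 200 of them shifted by 1 on the log2 scale. There limma found 99% of the shifted genes where the SD was 0.2, with 11 false calls, and 3.5% where it was 0.5, with 0. Every simulated gene had the same SD. In the data the SDs over the 5 libraries differed (median 0.30 over all tested genes, 0.16 to 0.84 for the members). The simulated shares thus do not give the power here. Levels are mean ± SD. Depth, read from the steps between low values of 873 long genes, was 6277590, 13046100, 30258100, 6329920 and 21271900 fragments for replicates 1 to 5, a rough figure because only 52.6% to 57.3% of values lay within 0.15 of a whole multiple. Counting errors cover counting only. Alternatives were pseudocount 0.1, other filters, median-of-ratios and quantile scaling, no trend, array weights, and libraries left out. Named genes are the members, and from each list its highest and lowest gene and the 3 with the largest differences, with the 3 genes nearest in profile to 4 members. A few genes that this rule names are not reported here. Coordinates are GENCODE M21 and start windows RefSeq. Members and lists were chosen with earlier results of these data known. Python 3.11.15, numpy 2.4.6, pandas 2.3.3, scipy 1.17.1 and matplotlib 3.10.9 were used.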

Additional observations from a re-analysis of the deposited data

Results flagged for a closer look

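Over the 5 libraries taken as 1 group, 2 of the 17 levels and ratios examined had a library that stood apart. Chance gives about 0.85 for any of the 5 libraries, and the ratios are built from the same levels. The share of all genes with such a gap is not given, so 2 of 17 is a description. In both cases the library was replicate 3, where 51.9% of all tested genes were lowest and 18.5% highest. The level of *Jak2* was highest there, with a gap to the next library that was 0.729 of the whole range. The level of *Elf5* was lowest there, with a gap of 0.73 of the range.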

How the results depend on the processing

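Of 130 recomputed differences of the members between labels, 116 kept their direction and 14 turned, and 0 members passed the threshold under any alternative (smallest limma adjusted p 0.11). Those that turned were *Stat3* (-0.065, median-of-ratios scaling), *Socs2* (-0.094) and *Akt1* (-0.090, both with array weights) and, without replicates 2 and 3 (chosen after seeing the data), *Jak2* (0.10), *Elf5* (-0.35), *Cish* (-0.023) and *Akt1* (-0.21). With 1 library left out, *Socs2* ranged from -0.38 to 0.66, *Stat3* from -0.060 to 0.20, *Elf5* from -0.15 to 0.71 and *Akt1* from -0.16 to 0.34. The number of genes past the threshold was 0 in the reported fit, 1 with array weights, 3 without replicates 2 and 3, and between 0 and 18 with 1 library left out (2 without replicate 1, 18 without replicate 4 and 4 without replicate 5, fits that leave 1 label with fewer libraries). The number of neighbours in the order that were apart by over 1 SD ranged from 2 to 5, with 5 without replicate 3. Of the recomputed levels 0 of 80 moved by over 1 SD, and of the ratios 0 of 42. Most of these left out 1 of 5 libraries, which cannot move a mean by 1 SD, so these counts do not show stability. No paired analysis was possible because the groups share no replicate numbers. The lack of counts limits all values to estimated depth, and 5 libraries limit the label comparison.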
